A study of Rattus norvegicus with 25 samples.

Results

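Transcripts of B cell receptor and plasma cell genes were measured in rat teeth that had been pulled, dried and put back. The genes were chosen by symbol: Cd79a and Cd79b, Blnk, Cd22 and Cd72, Ms4a1, Pax5 and Ebf1, and Mzb1. Of these 9 symbols, 8 were read from the count files and 6 had enough counts to be tested among 11492 genes, out of 16881 symbols in all. Cd79a was not analysed here. Cd22 had 90 counts over all 25 libraries, too few for the test, and Pax5 had 0 counts in every library.

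The samples were teeth with their periodontal ligament, the fibrous tissue that anchors a tooth in its socket, from Sprague–Dawley rats whose upper first molars had been extracted, left dry and replanted. The groups were delayed replantation (DR, 60 min dry) sampled at day 7, immediate replantation (IR, 5 min dry) at day 7, DR at day 3 and IR at day 3, with 6 libraries each, and 1 library labelled NT and control. All samples are labelled postnatal day 21, without saying at which step, and no strain or age difference between groups is given. The labels do not say that libraries of a group came from separate animals, so p-values measure the spread between libraries, which may be technical.

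A B cell reads antigen through a membrane antibody that has no signalling tail of its own. The signal passes through a pair of chains, CD79A and CD79B, to kinases and to the adaptor BLNK, and inhibitory receptors such as CD22 and CD72 damp it. EBF1 and PAX5 set the identity of the lineage, and when a B cell turns into an antibody-secreting plasma cell it switches off much of the receptor machinery and enlarges its secretory pathway, where MZB1 helps antibody chains to fold. In periodontal tissue B and plasma cells are known from chronic inflammation of the gum.

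Libraries held 5.04 to 8.81 M counts in the replanted groups and 8.55 M in NT. Levels are in CPM, each library's counts scaled to a common total and then by TMM, a correction for differences in composition between libraries. The kit counts transcript ends, so levels are not compared between genes. Several libraries stood apart in tissue makeup. Lipid-secreting gland markers summed to 20.6 to 3891 CPM in DR day 7, 18.8 to 60.3 CPM in IR day 7, 78.8 to 23620 CPM in DR day 3 and 23.4 to 30740 CPM in IR day 3, against 43.9 CPM in NT. Nasal gland markers summed to 287600 and 348200 CPM in IR day 3 replicates 3 and 4, and in the other replanted libraries to at most 67650 CPM, in IR day 7 replicate 6. Periodontal ligament markers summed to 29430 CPM or more in every day 7 library, but to only 1606 CPM in DR day 3 replicate 3 and 373 CPM in IR day 3 replicate 6. In an alternative chosen after the data had been seen, 6 day 3 libraries were left out. They were named for their gland content in an earlier look at these data, by no fixed threshold: IR day 3 replicates 3 and 4 for nasal gland markers, and replicates 1 to 3 of DR day 3 together with replicate 6 of IR day 3 for lipid-secreting gland markers, at 13370 CPM or more. DR day 3 replicate 4 and IR day 3 replicate 5, with 51870 and 38440 CPM of nasal gland markers, were kept. In whole tissue, more cells of a type and more RNA per cell cannot be told apart.

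Counts of Cd79b, a chain of the receptor, and of the plasma cell chaperone gene Mzb1 rose between day 3 and day 7, as did those of Cd72, while Ebf1 and Blnk gave log2 changes of -0.17 and 0.02. Pooled over both drying times, 3 of the 6 tested members were higher at day 7 and 0 were lower: Cd79b 4.96-fold, Mzb1 3.5-fold and Cd72 1.88-fold (edgeR, Benjamini-Hochberg adjusted p under 0.05 over all genes). In that comparison 18.8% of all tested genes were called, 6.94% as higher and 11.8% as lower. The median log2 fold change was 1.31 over the 6 members and -0.06 over all tested genes. Without those 6 day 3 libraries 51 genes were called in all, against 2156 with them, and only Cd72 among the members. Cd79b and Mzb1, no longer called, then had log2 fold changes of 2.42 and 2.16, against 2.31 and 1.81. Blnk and Ebf1, also not called, then gave 0.37 and -0.125. Cd72 counts cannot be separated from those of a neighbouring gene, as described with its values.

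**Figure D1:**
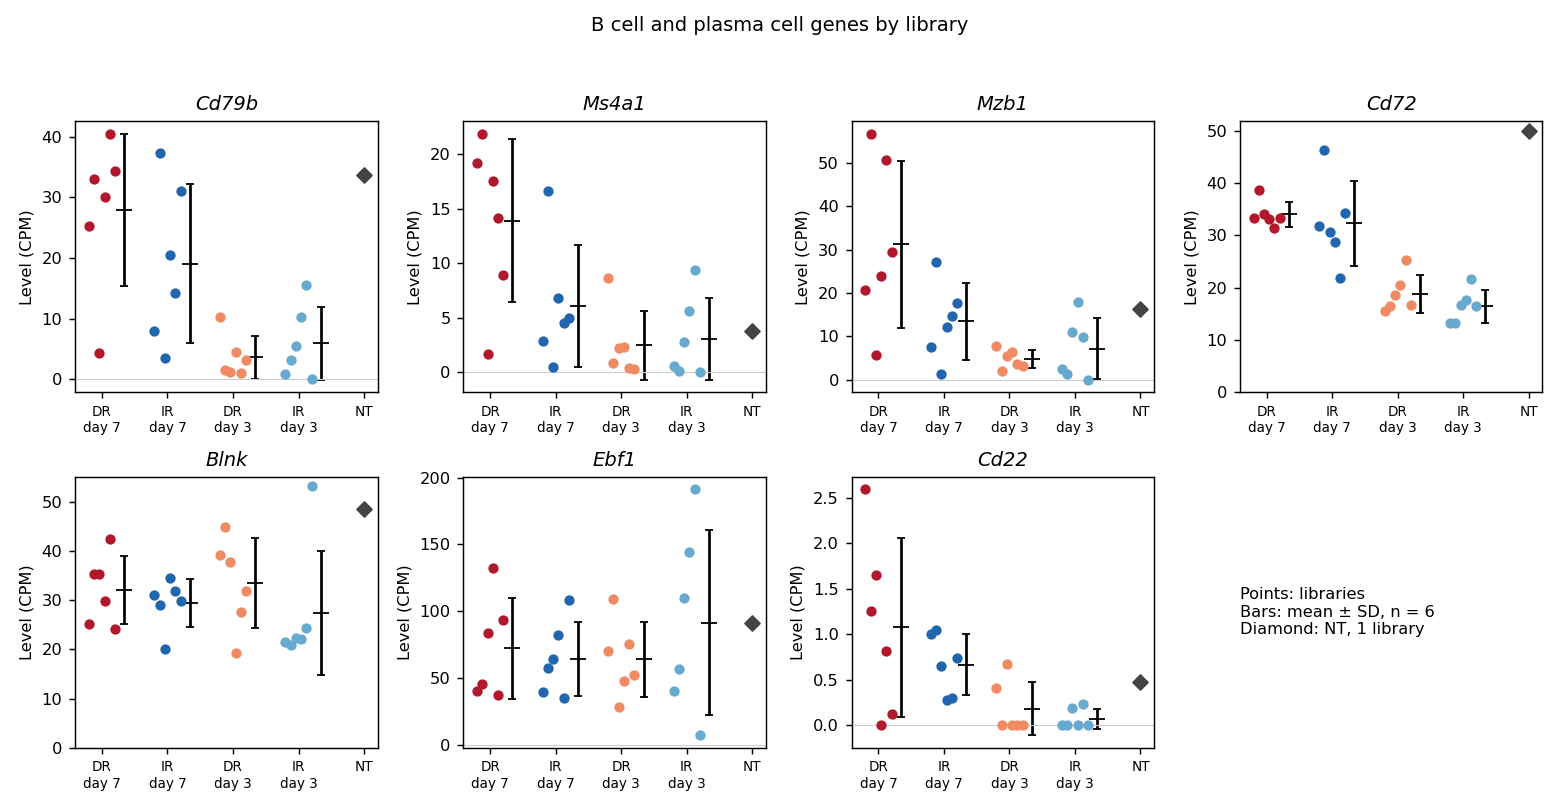
Level in CPM of 7 members in each library, by group, with the mean ± SD of 6 libraries as bars and NT as a diamond. Cd79b, Ms4a1 and Mzb1 were low in most day 3 libraries and spread widely at day 7, where replicate 3 of DR and replicate 3 of IR stayed low in all 3 genes.

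Cd79b encodes the Ig-beta chain of the receptor. Its lowest, median and highest levels were 4.41, 31.6 and 40.4 CPM in DR day 7 libraries, against 1.003, 2.37 and 10.3 CPM in DR day 3 libraries. In IR libraries they were 3.56, 17.3 and 37.2 CPM at day 7, against 0, 4.39 and 15.6 CPM at day 3. Thus 5 of 6 DR day 7 libraries and 3 of 6 IR day 7 libraries lay above every day 3 library of their drying time, and the groups overlapped in both. The pooled log2 fold change was 2.31 (SE 0.554, n = 12 per day, edgeR adjusted p = 0.0104). Within each drying time it was 2.94 in DR (SE 0.803, adjusted p = 0.0867) and 1.68 in IR (SE 0.767, adjusted p = 0.222), both short of the threshold. Left without the 6 libraries, the pooled value was 2.42 with an adjusted p of 0.123.

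Blnk, the adaptor that links the receptor's kinase to phospholipase C, was not called in any comparison by edgeR. It averaged 32.0 ± 6.99 CPM in DR day 7, 29.4 ± 4.95 CPM in IR day 7, 33.4 ± 9.19 CPM in DR day 3 and 27.4 ± 12.7 CPM in IR day 3 (SD, n = 6 each). The pooled log2 fold change was 0.02 (SE 0.167, 95% interval -0.32 to 0.37, edgeR adjusted p = 0.94). Without the 6 libraries it was 0.37 (SE 0.153, edgeR adjusted p = 0.315), so the value near 0 depended on those libraries. Its highest level, 53.1 CPM, was in IR day 3 replicate 6, the library with 0 counts of Cd79b, Ms4a1 and Mzb1.

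Cd22, an inhibitory receptor that binds sialic acid, was seen in 45 counts over the 6 DR day 7 libraries, 31 over IR day 7, 7 over DR day 3 and 3 over IR day 3, with 4 in NT. At day 7, 11 of 12 libraries had a count, against 4 of 12 at day 3. With no filter on low counts the pooled log2 fold change was 2.71 (SE 0.777, edgeR adjusted p = 0.0264).

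Cd72, an inhibitory receptor, had the narrowest spread of the genes that were called. Its lowest, median and highest levels were 31.4, 33.3 and 38.6 CPM in DR day 7 libraries, against 15.5, 17.6 and 25.4 CPM in DR day 3 libraries. In IR they were 21.9, 31.2 and 46.4 CPM at day 7, against 13.2, 16.5 and 21.6 CPM at day 3. The days did not overlap within either drying time, which held for 1.93% of tested genes in DR and 0.583% in IR, counted as higher at day 7, and for 3.01% in DR and 1.15% in IR counted in either direction. The pooled log2 fold change was 0.91 (SE 0.12, edgeR adjusted p = 0.000514), and 0.88 with an adjusted p of 0.0275 without the 6 libraries.

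That value cannot be assigned to Cd72 alone. In the RefSeq table of GRCr8 the gene overlaps Tesk1, a protein kinase gene, and the strand setting of the counting is not given in the sources used here. Cd72 and Tesk1 counts differed by no more than 1 counting error, the square root of their sum, in 21 of 25 libraries, with Cd72 at 0.77 to 1.02 times Tesk1. Tesk1 gave a pooled log2 fold change of 0.85 (SE 0.11, adjusted p = 0.000514). Of the other members, Ms4a1, Pax5 and Ebf1 overlap uncharacterised RefSeq loci that were not used here, and their counts are uncertain to that extent.

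Ms4a1 encodes CD20, the surface antigen of mature B cells. Its lowest, median and highest levels were 1.66, 15.9 and 21.9 CPM in DR day 7 libraries, against 0.329, 1.54 and 8.68 CPM in DR day 3 libraries. In IR they were 0.485, 4.77 and 16.7 CPM at day 7, against 0, 1.69 and 9.41 CPM at day 3. The pooled log2 fold change of 1.71 (SE 0.651) missed the threshold with an edgeR adjusted p of 0.0671. It passed when DR day 3 replicate 1 (2.21, adjusted p = 0.0306) or IR day 3 replicate 5 (2.14, adjusted p = 0.0326) was left out, the day 3 libraries with the most Ms4a1 in their groups, and in DESeq2 (1.70, adjusted p = 0.0308). In 22 of the 24 fits that each left out 1 library it did not pass. Nor did it pass with the replicate block (1.73, edgeR adjusted p = 0.131) or without the 6 libraries (2.26, edgeR adjusted p = 0.239).

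No call was made for the transcription factors by edgeR. Pax5 had 0 counts throughout, and 3 counts, the limit that a count of 0 allows, would be 0.316 to 0.738 CPM per replanted library. Ebf1 is also active in stromal cells, pericytes and fat cells, and it varied most within IR day 3, where its lowest, median and highest levels were 7.22, 83.1 and 191.3 CPM. They were 37.7, 64.6 and 132.4 CPM in DR day 7, 35.3, 60.9 and 108.2 CPM in IR day 7, and 28.7, 61.4 and 109.5 CPM in DR day 3. The pooled log2 fold change was -0.17 (SE 0.358, 95% interval -0.91 to 0.57, edgeR adjusted p = 0.765). Between days in IR, limma-voom with quality weights called Ebf1 lower at day 7, at -1.07 (SE 0.356, adjusted p = 0.0217), where edgeR gave -0.51 (SE 0.507, adjusted p = 0.569).

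Mzb1, a chaperone of the endoplasmic reticulum in plasma cells, marginal zone B cells and plasmacytoid dendritic cells, had its highest levels in DR at day 7. There its lowest, median and highest levels were 5.63, 26.7 and 56.7 CPM, against 2.10, 4.58 and 7.73 CPM in DR day 3 libraries. In IR they were 1.29, 13.4 and 27.3 CPM at day 7, against 0, 6.29 and 18.0 CPM at day 3. The pooled log2 fold change was 1.81 (SE 0.521, edgeR adjusted p = 0.0212), with 2.70 in DR (SE 0.757, adjusted p = 0.0885) and 0.92 in IR (SE 0.722, adjusted p = 0.464). Without the 6 libraries the pooled value was 2.16 with an adjusted p of 0.129, and with sample quality weights in limma-voom it was 1.22 with an adjusted p of 0.131.

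Within the drying times, 0 of 6 members were called between days in DR, where 0.0087% of tested genes were called by edgeR, as higher. There 4 members and 2589 genes had an unadjusted p under 0.05, and DESeq2 called 3 members and 1069 genes, limma-voom with quality weights 1 member and 3921 genes. In IR 1 of 6 members was called, where 0.139% of tested genes were, 0.104% as higher and 0.0348% as lower. The IR call was Cd72, with a log2 fold change of 0.97 (SE 0.17, edgeR adjusted p = 0.0229), and it shares the doubt about Tesk1. DESeq2 called 1 member and 760 genes there, and limma-voom 4469 genes and 2 members, 1 higher and 1 lower, the lower one Ebf1. The edgeR call of Cd72 in IR ended when IR day 3 replicate 3, 4 or 6 or IR day 7 replicate 2 or 4 was left out (edgeR adjusted p between 0.0631 and 0.0766). The change between days was not shown to differ between DR and IR for any member, and 0% of all genes were called in that interaction by edgeR, with 346 genes and 0 members at an unadjusted p under 0.05. DESeq2 called 11 genes and limma-voom 747 there, with 0 members in either. The widest interaction was that of Mzb1, at 1.78 (SE 1.02, 95% interval -0.34 to 3.89, adjusted p = 1).

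The drying comparison asks what the longer dry period changed at a given day. At day 7 all 6 tested members were nominally higher in DR, but 0 were called, as were 0% of all genes, while 206 genes and 0 members had an unadjusted p under 0.05, DESeq2 called 3 genes and limma-voom 0. Mzb1 averaged 31.2 ± 19.2 CPM in DR and 13.5 ± 8.90 CPM in IR (SD, n = 6 each), a log2 difference of 1.21 (SE 0.714, 95% interval -0.27 to 2.69, adjusted p = 1). Ms4a1 averaged 13.9 ± 7.48 CPM in DR and 6.07 ± 5.61 CPM in IR, a difference of 1.19 (SE 0.894, 95% interval -0.66 to 3.04, adjusted p = 1). The groups overlapped widely in both genes.

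Compared by replicate number at day 7, DR lay above IR in 6 of 6 pairs for Mzb1 and for Ms4a1, which held for 2.26% of all tested genes. The labels do not say that the numbers pair libraries, so these pairs and the block below rest on an assumption. Cd79b was higher in DR in 5 of 6 pairs, Cd72 and Ebf1 in 4 and Blnk in 3. A fit of the day 7 libraries with the replicate number as a block gave Mzb1 a difference of 1.30 (SE 0.192) and Ms4a1 one of 1.401 (SE 0.307). Neither passed, with edgeR adjusted p-values of 0.338 and 0.68.

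At day 3 the members showed no common direction. Again 0 of 6 members and 0% of all genes were called by edgeR, while 313 genes and 0 members had an unadjusted p under 0.05. DESeq2 called 0 genes and limma-voom with quality weights 1523. The log2 difference between DR and IR was -0.71 for Cd79b (SE 0.772), -0.57 for Mzb1 (SE 0.731), -0.51 for Ebf1 (SE 0.507), -0.33 for Ms4a1 (SE 0.918), 0.19 for Cd72 (SE 0.169) and 0.29 for Blnk (SE 0.236). The 95% interval of Cd79b ran from -2.31 to 0.89, so a difference in either direction within it was not excluded. Blnk was the member called by limma-voom, at 0.61 (adjusted p = 0.0441).

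**Figure D2:**
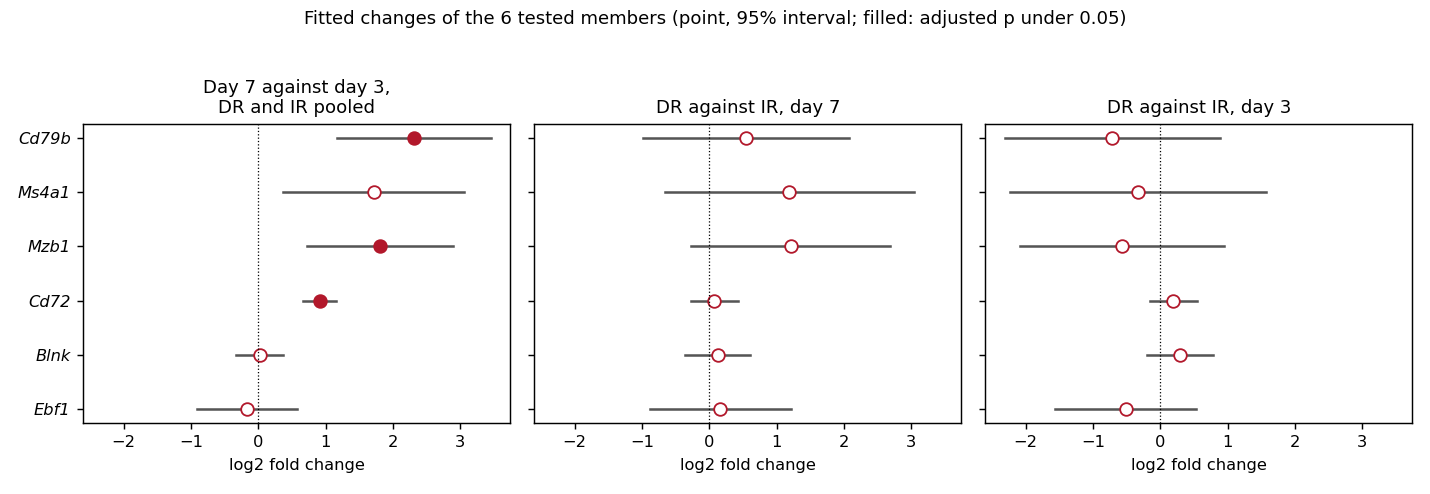
Fitted log2 fold changes of the 6 tested members with 95% intervals, for day 7 against day 3 pooled over drying, DR against IR at day 7 and DR against IR at day 3. Filled points, with an adjusted p under 0.05, appear only in the comparison of days, for Cd79b, Mzb1 and Cd72.

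Libraries of 1 group that were high in Cd79b were also high in Ms4a1 and Mzb1. After the group mean had been taken from each log2 CPM value, Cd79b and Mzb1 gave a Pearson r of 0.877 and a Spearman rho of 0.859 over 24 replanted libraries (permutation within groups, two-sided, adjusted p = 0.00017 and 0.00034 over 17 relations). Cd79b and Ms4a1 gave 0.855 and 0.817 (permutation, adjusted p = 0.00017 and 0.000425). Without DR day 7 replicate 3 and IR day 3 replicate 6, the libraries farthest out in Cd79b, r was 0.784 for Mzb1 and 0.806 for Ms4a1. By group it ran between 0.612 in DR day 3 and 0.945 in IR day 7 for Mzb1, and between 0.697 in DR day 3 and 0.929 in IR day 7 for Ms4a1.

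For Blnk and Cd72 the relation with Cd79b missed the threshold. The r was -0.285 for Blnk (permutation, adjusted p = 0.521) and 0.195 for Cd72 (permutation, adjusted p = 0.628). Without DR day 7 replicate 3 and IR day 3 replicate 6 these were 0.137 and 0.274. By group the r of Blnk ran between -0.717 in IR day 3 and 0.657 in IR day 7. That of Cd72 ran between -0.562 in DR day 3 and 0.524 in IR day 3, and it shares the doubt about Tesk1. For Ebf1 it was 0.603 (permutation, adjusted p = 0.0594), and 0.474 without the same libraries. Csf1r, the growth factor receptor of macrophages, was tested against each member and gave an adjusted p under 0.05 in r with Blnk alone, at -0.63 (permutation, adjusted p = 0.0394), where rho was -0.462 (adjusted p = 0.15). Without IR day 3 replicates 2 and 6 that r was -0.458. Among day 3 libraries alone, r between Csf1r and Blnk was -0.846 for DR and -0.788 for IR. Among day 7 libraries it was 0.583 for DR and -0.00476 for IR. A strong negative r of Csf1r with Blnk was thus seen only at day 3. None of the 6 relations with Pdgfrb, a receptor of pericytes and mesenchyme, reached an adjusted p under 0.05. The strongest of them was that of Blnk, with an r of -0.681 (permutation, adjusted p = 0.0594). Split by day, r between Pdgfrb and Blnk was -0.618 for DR and -0.969 for IR at day 3. At day 7 the values were 0.437 for DR and -0.304 for IR.

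**Figure D3:**
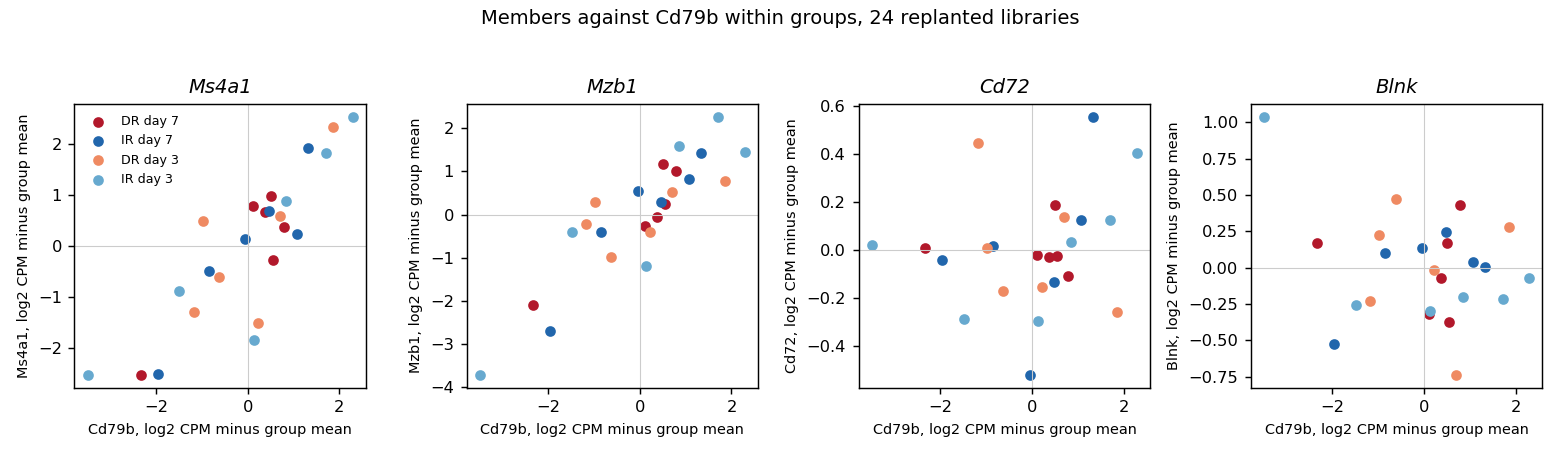
Log2 CPM minus the group mean of Ms4a1, Mzb1, Cd72 and Blnk against that of Cd79b in 24 replanted libraries, coloured by group. Ms4a1 and Mzb1 climb with Cd79b (r of 0.855 and 0.877), while Cd72 and Blnk show no clear relation over the 24 libraries. The IR day 3 library at the far left, replicate 6, is the highest in Blnk. Cd72 counts cannot be separated from those of Tesk1.

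The genes whose deviations were most like those of Cd79b, among 9152 with a mean of at least 5 CPM, included Ptprcap (r = 0.906), Cd83 (0.903), Cd177 (0.899), Pou2af1 (0.87) and RGD1565655 (0.864), given as a description over 24 libraries. Pou2af1 is a coactivator of antibody genes. Ptprcap binds the phosphatase CD45 of lymphocytes and CD83 marks activated dendritic and B cells, while Cd177 is known as a surface protein of neutrophils.

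Other genes of the pathway were read from 8 lists with 112 symbols, of which 73 genes were tested. Between days, pooled over drying, 36 of the 73 were higher at day 7 and 3 were lower, against 6.94% and 11.8% of all tested genes. In each of the other comparisons 0 of the 73 were called. Counts given below without the 6 day 3 libraries come from a fit that called 51 genes in all, 39 higher and 12 lower, against 2156. The lists are descriptions, since they were chosen with results of these data known.

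The kinases, co-receptors and adaptors downstream of the receptor were higher in 10 of 15 tested genes and lower in 0, with a median log2 fold change of 1.20. Bank1, a scaffold of B cells, rose by 1.99 (SE 0.496, edgeR adjusted p = 0.0119), and Blk, a Src-family kinase, by 1.38 (SE 0.336, adjusted p = 0.0105). Pik3cd, a lipid kinase subunit of leukocytes, rose by 1.15 (SE 0.241, adjusted p = 0.00742) and Prkcb, a protein kinase C, by 1.53 (SE 0.366, adjusted p = 0.0103). Without the 6 libraries 1 of 15 remained called, Pik3cd at 0.88 (adjusted p = 0.0298), and the list median was 0.63.

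Inhibitory receptors and phosphatases gave 4 higher and 0 lower of 8, with a median of 1.05. Ptpn6, the phosphatase SHP-1, averaged 105.9 ± 18.2 CPM at day 7 and 63.5 ± 19.3 CPM at day 3 (SD, n = 12 each), a log2 fold change of 0.74 (SE 0.141, edgeR adjusted p = 0.00563). Csk, a kinase that restrains Src-family kinases, rose by 0.63 (SE 0.124, adjusted p = 0.00653) and Lilrb3, an inhibitory receptor of leukocytes, by 1.92 (SE 0.615, adjusted p = 0.0339). The T cell and B cell receptor Cd5 reached 1.91 (SE 0.626, adjusted p = 0.0375). Without the 6 libraries none of the 8 was called and the list median was 0.50.

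Of the transcription factors of B cell stages, 4 of 8 were higher and 0 lower, with a median of 1.28. Pou2af1 averaged 12.5 ± 7.68 CPM at day 7 and 3.74 ± 2.99 CPM at day 3, a log2 fold change of 1.70 (SE 0.465, edgeR adjusted p = 0.0169). Spib, Ikzf3 and the octamer-binding factor Pou2f2 gave 1.73, 2.10 and 1.25 (adjusted p between 0.0165 and 0.0233). Bcl6, a germinal centre repressor with uses in many other cells, gave -0.57 and Foxo1 -0.40, neither called. Without the 6 libraries none of the 8 was called and the list median was 0.64.

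Surface genes of B cells, several of them shared with other antigen-presenting cells, were higher in 12 of 15 and lower in 1, with a median of 1.47. Fcer2, the low-affinity IgE receptor CD23, averaged 11.3 ± 6.38 CPM at day 7 and 2.17 ± 2.48 CPM at day 3, a log2 fold change of 2.36 (SE 0.61, edgeR adjusted p = 0.0137). Cd74 and RT1-Db1, of MHC class II presentation, rose by 1.51 (SE 0.302, adjusted p = 0.00664) and 1.47 (SE 0.29, adjusted p = 0.00653), and both were still called without the 6 libraries (adjusted p = 0.0228 and 0.0257). Ciita, the master regulator of MHC class II genes, rose by 1.74 (SE 0.338, adjusted p = 0.00639) and Ly86, a partner of a Toll-like receptor homologue on B cells, by 1.79 (SE 0.355, adjusted p = 0.00653), with adjusted p-values of 0.0843 and 0.0978 without the 6 libraries. Cd24, also strong in epithelia and granulocytes, was the gene that fell, with a log2 fold change of -2.32 (SE 0.529, adjusted p = 0.00912). Cd37 was called at 1.30 (adjusted p = 0.0221), but its counts went with those of the overlapping gene Tead2 (r = 0.973 over 24 libraries after removal of group means) and are uncertain. Without the 6 libraries 3 of 17 tested were higher and 0 lower, and the list median was 1.04.

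The genes that draw B cells into tissue held the largest called change of the lists. Cxcl13, the chemokine that attracts B cells, averaged 139.2 ± 89.1 CPM at day 7 and 22.7 ± 15.4 CPM at day 3 (SD, n = 12 each), a log2 fold change of 2.61 (SE 0.513, edgeR adjusted p = 0.00653). Its means were 154.4 CPM in DR day 7, 124.0 CPM in IR day 7, 23.6 CPM in DR day 3 and 21.8 CPM in IR day 3, and it was lower in NT at 12.1 CPM. Ccr6, a chemokine receptor of B and T cells, rose by 2.07 (SE 0.405, adjusted p = 0.00653) and Ltb, a lymphotoxin chain, by 1.67 (SE 0.263, adjusted p = 0.00162). Ccl21, a chemokine of lymphoid tissue, rose by 1.28 (SE 0.377, adjusted p = 0.0233). In all, 6 of 12 survival and homing genes were higher and 0 lower, with a median of 1.19. Cxcl13, Ccr6 and Ltb were the 3 called without the 6 libraries, at 2.33, 2.05 and 1.76 (adjusted p between 0.0228 and 0.0485), and the list median over 13 tested genes was 0.91.

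Among plasma cell genes other than Mzb1, none was called higher by edgeR. Of 14 tested, 0 were higher and 2 lower at day 7, with a median of -0.13. DESeq2 called 1 higher and 2 lower of them, and limma-voom with quality weights 4 and 3. Sec11c, a signal peptidase subunit, averaged 118.8 ± 28.3 CPM at day 7 and 313.4 ± 175.8 CPM at day 3, and Dnajb9, a chaperone of the endoplasmic reticulum, 16.5 ± 2.82 and 25.4 ± 9.97 CPM. Their log2 fold changes were -1.395 (SE 0.264, edgeR adjusted p = 0.00541) and -0.62 (SE 0.215, adjusted p = 0.0461), and neither was called without the 6 libraries (-0.46 and -0.10). Irf4 and Prdm1, regulators of the plasma cell fate, gave 1.34 (adjusted p = 0.0652) and 0.81 (adjusted p = 0.29), and Xbp1 gave -0.10 (adjusted p = 0.764). The antibody chain genes of the immunoglobulin list were not analysed here.

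**Figure D4:**
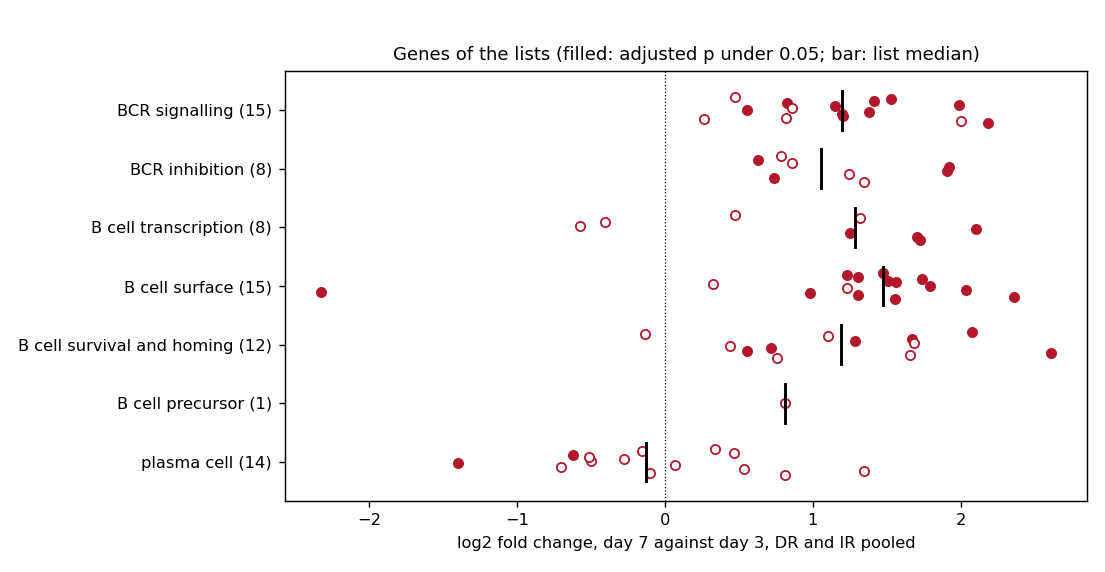
Log2 fold changes between day 7 and day 3, pooled over drying, of the tested genes of 7 lists, with the number tested in brackets, the list median as a bar and called genes filled. The lists of receptor signalling, inhibition, transcription, surface and homing have medians between 1.05 and 1.47, and the plasma cell list has one of -0.13.

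Markers of other cell types moved between the same days. T cell markers were higher in 7 of 8 tested genes with a median log2 fold change of 2.04, and macrophage markers in 4 of 8 with a median of 1.18. The summed T cell markers lay between 77.4 and 141.6 CPM in DR day 7, 39.6 and 142.9 CPM in IR day 7, 5.94 and 50.4 CPM in DR day 3, and 6.62 and 42.9 CPM in IR day 3. B cell markers, a list that includes the members Cd79b, Ms4a1, Cd22 and Pax5 and so partly repeats them, were higher in 5 of 7. Those called include Cd79b itself and Cd37, whose counts are uncertain. The summed B cell markers lay between 48.7 and 149.2 CPM in DR day 7, 33.8 and 146.7 CPM in IR day 7, 8.54 and 52.5 CPM in DR day 3, and 1.002 and 69.5 CPM in IR day 3, with Pax5 at 0. Of the plasmacytoid dendritic cell markers 1 of 3 tested, Irf7, was higher, and Tlr9 was at 0 in all libraries. Lipid-secreting gland markers were lower in 3 of 4, muscle markers in 2 of 8, and periodontal ligament markers higher in 2 of 5. Without the 6 libraries T cell markers were higher in 1 of 9 tested genes (median 1.62), macrophage markers in 0 of 8 (median 0.55) and B cell markers in 0 of 7 (median 2.26, against 2.002 with them), and none of the gland, muscle, ligament or plasmacytoid markers was called. The part of these shifts in the changes of the B cell genes was not tested.

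The NT library, which has no replicate and therefore no test, held Cd72 above the replanted range and Cd79b and Blnk near its top. Cd79b had 285 counts in NT (95% Poisson interval 252.9 to 320.1), or 33.6 CPM, above 21 of 24 replanted libraries, among them all day 3 libraries. Cd72, with the same doubt about Tesk1, had 49.98 CPM, above all 24. Blnk had 48.6 CPM, above 23 of 24, while Ebf1 at 91.4 CPM and Mzb1 at 16.4 CPM lay within the replanted range. Ms4a1, at 3.77 CPM from 32 counts (interval 21.9 to 45.2), was in the middle of it, with 12 libraries above and 12 below. The intervals cover counting error only.

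Genes of B cell precursors set NT apart more than the members did. Rag1, of the recombinase that assembles antibody genes, had 110 counts in NT, 13.0 CPM, against a median of 0.0809 and a maximum of 1.20 CPM in replanted libraries. Rag2 had 4.24 CPM (maximum 1.49 in replanted libraries), and Dntt, which adds bases at the joints, 2.95 CPM (maximum 0.855). The surrogate light chain gene Igll1 had 9.43 CPM in NT (maximum 2.95), and Vpreb3, a chaperone of that stage, 42.6 CPM (maximum 12.5). Vpreb1 and Vpreb2, near-identical genes whose reads may be split, had 5.89 and 6.72 CPM (maxima 2.39 and 2.57). All 7 thus lay above all 24 replanted libraries in NT, which was so for 8.03% of the 15213 genes with a count, and Il7r of the same list had 0 counts in all 25 libraries. The coactivator Pou2af1 (42.8 CPM), Spib (34.5 CPM) and the Fc receptor-like gene Fcrla (29.7 CPM) were also above all 24.

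Other markers of blood-forming tissue were high in the same library, and so were markers of ligament, odontoblasts and mesenchyme. Granulocyte precursor markers summed to 1576 CPM in NT, against 0.509 to 297.4 CPM in the replanted libraries, and erythroid markers to 1669 CPM, against 5.61 to 267.6 CPM. Cxcl12, the factor by which marrow stroma holds B cell precursors, is also in the mesenchyme and pericyte list. It had 319 CPM in NT and at most 112.3 CPM in a replanted library. Periodontal ligament markers summed to 128300 CPM in NT (at most 85480 in a replanted library), odontoblast markers to 2314 CPM (1191), and mesenchyme and pericyte markers to 474.9 CPM (272.5). Sums of B cell, plasma cell, T cell, macrophage, plasmacytoid, adipocyte, muscle and gland markers lay within the replanted range. T cell markers summed to 13.3 CPM in NT. Treatment, possible differences in age and tissue makeup cannot be told apart with 1 library.

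**Figure D5:**
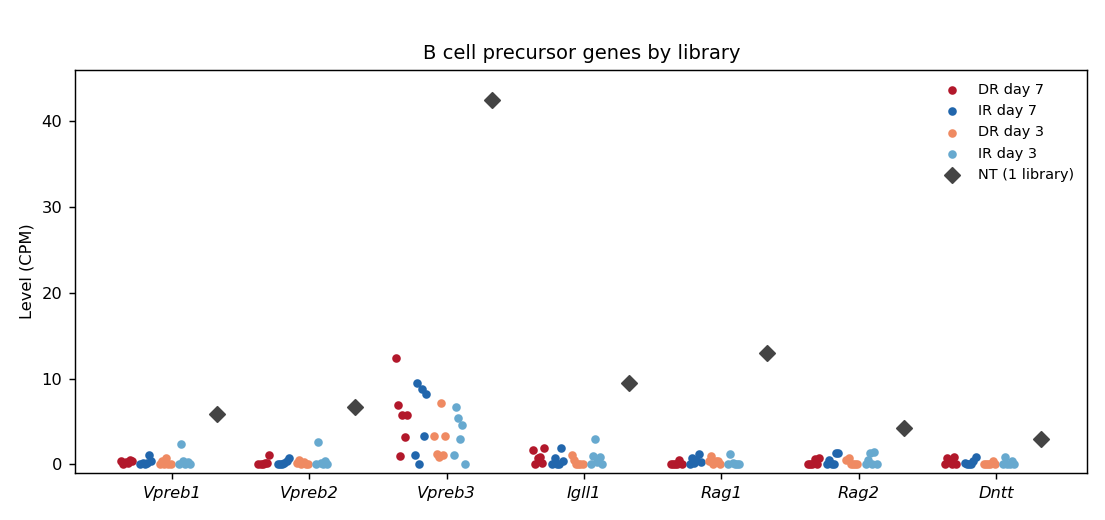
Level in CPM of 7 B cell precursor genes in each replanted library, by group, and in NT as a diamond. NT lies above all 24 replanted libraries in each gene, from 2.95 CPM for Dntt to 42.6 CPM for Vpreb3.

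The octamer, the site of Pou2f2 and its coactivator Pou2af1, was looked for in the RefSeq promoters of GRCr8, 250 bases before to 50 after each gene's start. Of the 9 members, Cd79a, Blnk, Cd22 and Ebf1 are in that promoter table. The letters ATGCAAAT, on either strand, stood in 595 of 33469 promoters (1.78%) and in 3 of 82 promoters of the members and lists (3.66%), those of Blnk, Ccr6 and Vpreb3. They are shown because Blnk is a member, Ccr6 rose between days and Vpreb3 was highest in NT. The EBF palindrome, a site of the factor EBF1, stood in 0.834% of all promoters and in 0 of the 82. A match is a description of letters and not of binding. Each sequence runs 5′ to 3′ on the gene's strand, the minus strand in all 3, with the octamer in capitals as read there, 189, 91 and 56 bases before the start of Blnk, Ccr6 and Vpreb3.
Blnk, chr1:249770484-249770783: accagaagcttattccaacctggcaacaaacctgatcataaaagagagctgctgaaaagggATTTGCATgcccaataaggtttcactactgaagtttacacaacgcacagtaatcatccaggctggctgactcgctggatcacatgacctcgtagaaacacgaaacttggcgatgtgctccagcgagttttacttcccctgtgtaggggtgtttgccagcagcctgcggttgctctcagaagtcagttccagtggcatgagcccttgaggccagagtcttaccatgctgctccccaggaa
Ccr6, chr1:55046079-55046378: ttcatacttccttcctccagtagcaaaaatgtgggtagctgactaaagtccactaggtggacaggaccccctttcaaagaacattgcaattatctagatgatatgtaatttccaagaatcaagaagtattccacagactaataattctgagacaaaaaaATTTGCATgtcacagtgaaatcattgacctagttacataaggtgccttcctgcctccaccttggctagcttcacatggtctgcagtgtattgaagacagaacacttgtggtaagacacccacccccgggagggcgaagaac
Vpreb3, chr20:12718177-12718476: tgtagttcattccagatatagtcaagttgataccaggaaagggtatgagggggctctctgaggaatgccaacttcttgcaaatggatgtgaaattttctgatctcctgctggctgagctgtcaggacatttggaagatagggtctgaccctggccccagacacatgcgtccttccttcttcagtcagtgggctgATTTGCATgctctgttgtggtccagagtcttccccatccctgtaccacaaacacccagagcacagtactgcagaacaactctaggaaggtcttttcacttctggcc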

How the data were processed

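RNA from 25 libraries was counted. Trizol served for the RNA and a Lexogen QuantSeq kit, which reads transcript ends, for the libraries, per the labels' protocols. The deposited values are whole-number counts per gene symbol, 1 file per library and not normalised. The tools Bowtie2 and edgeR and the builds rn6 and mm10 are listed per the submitters' processing notes. For their roles, the counting tool, the annotation and the strand setting, no statement is given in the sources used here.

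Of the 17048 entries, 149 symbols were repeated, and the entry with the highest total was kept. Ribosomal RNA entries held 9.74% to 33.8% of counts in replanted libraries and 2.91% in NT. The 24 replanted libraries entered 1 edgeR 4.0.16 quasi-likelihood model in R 4.3.3 (4 group means, TMM, filterByExpr by group, robust, 20 residual degrees of freedom), whose code was tested on simulated data. Standard errors come from the fold change and its F value, and 95% intervals from them. Genes with a Benjamini-Hochberg adjusted p under 0.05 over 11492 genes were called. Log2 CPM used a prior count of 2. Relations used 100000 permutations within groups. The alternatives were RLE scaling, no filter, DESeq2 1.42.0, limma-voom 3.58.1 with quality weights, no ribosomal RNA entries, summed repeated symbols, a replicate block, only the groups compared, and leaving out each library.

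The members and lists were chosen with earlier results of these data known. Named were all members and, per list, up to 4 called genes of smallest p between days. Bcl6, Foxo1, Irf4, Prdm1, Xbp1, Cd24, Cd37, Tesk1 and the genes named for NT were named after their values had been seen. Tnfrsf17, Tnfsf13b, Tnfsf13 and Cxcr5 were also named outside that rule. Relations and likeness were planned on Cd79a and used Cd79b in its place. Replicate numbers come from the labels. At day 7 the deviations of same-numbered DR and IR libraries correlated at 0.214 to 0.72 in all 6 pairs. For DR replicates 2, 3 and 4, however, an IR library of another number correlated more. The values were 0.242 against 0.231, 0.303 against 0.241 and 0.45 against 0.214. Pairing by number at day 7 is therefore an assumption that the labels do not state. At day 3 and across days the numbers were not taken to pair libraries. Near-identical and overlapping genes are uncertain. In the tables of symbols, 0 columns belonged to another series. RefSeq sequences were matched by symbol. Called genes of the marker lists of other cell types were not all named, and 1 gene of the B cell lists that the rule picked is not reported here.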

Additional observations from a re-analysis of the deposited data

Results flagged for a closer look

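Of 24 checks for a library far from the others of its group, on the log2 CPM of the 6 tested members in 4 groups of 6, 4 stood out, where chance gives about 1 in 20. In DR day 7, replicate 3 was low in Cd79b at 2.23 log2 CPM (the others 4.67 to 5.35) and in Ms4a1 at 0.96 (the others 3.21 to 4.47). In IR day 7, replicate 3 was low in Blnk at 4.35 (the others 4.88 to 5.12). That library was also the lowest of its group in Cd79b, Ms4a1 and Mzb1, at 3.56, 0.485 and 1.29 CPM, without being flagged for them. In IR day 3, replicate 6 was high in Blnk at 5.74 (the others up to 4.63), and it held 373 CPM of periodontal ligament markers and 30740 CPM of lipid-secreting gland markers. The part of tissue makeup in these values was not tested.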

How the results depend on the processing

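Of 276 alternative values of the members' changes, leaving out the single-library fits, 255 kept their direction and side of the threshold, 7 lost a call, 9 gained one and 5 turned sign. Between days in DR, where 1 gene was called, RLE scaling, no filter, no ribosomal RNA entries, the replicate block and the fit without the 6 day 3 libraries named for gland content called 0 genes, the fit of only the groups compared 43, DESeq2 1069 and limma-voom 3921. Members called there were 3 with DESeq2, 1 with limma-voom and 2 with only the groups compared, against 0. Between days in IR, where 16 genes and 1 member were called, DESeq2 called 760 genes, limma-voom 4469 genes and 2 members (Ebf1 lower, at -1.07), the replicate block 0 and 0, only the groups compared 0 and 0, and the fit without the 6 libraries 1 and 0. Pooled over drying, against 2156 genes and 3 members, limma-voom called 5780 genes, the replicate block 1197, and the fit without the 6 libraries 51 genes and 1 member. For drying, DESeq2 called 3 genes at day 7 and limma-voom 1523 genes and 1 member, Blnk, at day 3, against 0. For the interaction DESeq2 called 11 genes and limma-voom 747, against 0. The cause of these differences was not tested. With the replicate block the pooled Mzb1 call was lost (1.74, adjusted p = 0.0827), but the numbers do not pair libraries across days, and the blocked fit of day 7 changed no call. Values that turned sign were Ms4a1 at 0.27 and Mzb1 at 0.19 for drying at day 3 (block within the day), Blnk at 0.32 between days in DR (without the 6 libraries), and, with limma-voom, Ebf1 at -0.20 between days in DR and Mzb1 at -0.10 between days in IR. Leaving out 1 library at a time gave 0 to 576 genes for drying at day 3 (576 without IR day 3 replicate 6), 0 to 369 genes and 0 to 1 members between days in DR (369 without DR day 3 replicate 4), 0 to 402 genes and 0 to 1 members in IR (402 without IR day 3 replicate 1), and 1375 to 2916 genes and 3 to 4 members pooled (1375 without DR day 3 replicate 3). In those fits changes near 0 turned sign. They ran from -0.016 to 0.21 for Cd72 and -0.10 to 0.40 for Ebf1 in drying at day 7, -1.32 to 0.43 for Ms4a1 in drying at day 3, -0.18 to 0.10 for Blnk and -0.092 to 0.45 for Ebf1 between days in DR, and -0.037 to 0.17 for Blnk and -0.30 to 0.039 for Ebf1 pooled. Of 408 alternative values of the 51 other named genes, 339 kept direction and side of the threshold, 68 lost the call, 1 gained one and 0 turned sign. Cd22 was too low for the test with the filter, and for Pax5, at 0 in all libraries, the depth gives only an upper limit.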

Other observations

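Genes of plasma cell survival gave the following levels. Tnfrsf17, the survival receptor BCMA of plasma cells, was too low for the test, at 2.12 ± 1.30 CPM in DR day 7, 0.618 ± 0.811 CPM in IR day 7, 0.390 ± 0.388 CPM in DR day 3 and 0.470 ± 0.451 CPM in IR day 3 (SD, n = 6 each), with 2.004 CPM in NT. Tnfsf13b, the B cell survival factor BAFF, had no counts in either day 3 group and averaged 0.0455 CPM in DR day 7 and 0.188 CPM in IR day 7. Tnfsf13, the BCMA ligand APRIL, averaged 69.2 ± 18.1 CPM in DR day 7, 79.1 ± 14.3 CPM in IR day 7, 38.6 ± 20.8 CPM in DR day 3 and 49.7 ± 28.6 CPM in IR day 3, with 42.3 CPM in NT, and was not called between days (pooled log2 fold change 0.76, SE 0.29, edgeR adjusted p = 0.0687). The Cxcl13 receptor gene Cxcr5 averaged 0.451 CPM in DR day 7 and 0.417 CPM in IR day 7.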
